A study of Caenorhabditis elegans with 357 samples.

Results

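Heat shock proteins and related chaperones were followed in single Caenorhabditis elegans larvae. The set comprised 9 genes chosen by their symbols, hsp-1, hsp-3, hsp-4, hsp-6, hsp-60, hsp-70, hsp-16.2, hsp-16.41 and hsp-16.48, out of 19364 genes listed for both strains. All 9 were listed, and 8 passed the filter on low values (a level of 5 RPM, reads scaled to 1000000 per library, reached by 10% of the animals) that left 14293 genes for testing. hsp-16.48 did not pass. Transcripts were sequenced from polyA RNA of whole animals in the fourth larval stage (L4), 1 library per animal. The animals belonged to the wild-type strain N2 and to strain MT15434, called tph-1 here, which carries the tph-1(mg280) allele of the gene for tryptophan hydroxylase, the enzyme that starts serotonin synthesis. Animals of both strains were hatched from bleached eggs, kept singly in arenas on agar with UV-killed OP50 bacteria and imaged, then cut with a needle and frozen, and each is labelled with the minutes it had spent in L4. No animal is labelled as heat-shocked or otherwise stressed, and the culture temperature is not given in the sources used here.

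Chaperones bind unfolded or partly folded proteins and use cycles of ATP hydrolysis, or in the case of small heat shock proteins simple holding, to keep them from aggregating. In the worm, the cytosol, the endoplasmic reticulum (ER) and the mitochondria each have their own HSP70-type chaperone, and each compartment has a stress response that raises its own set: HSF-1 acts on cytosolic heat shock genes, XBP-1 acts on ER genes such as hsp-4, and ATFS-1 acts on mitochondrial genes such as hsp-6 and hsp-60. Reporters of hsp-4, hsp-6, hsp-60, hsp-16.2 and hsp-70 are widely used readouts of these responses in worms, and differences in an hsp-16.2 reporter between identical worms are a known example of variation between individuals.

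Libraries held between 587469 and 11544404 reads in genes in N2 (median 2922062) and between 437993 and 5175666 in tph-1 (median 1764816), so a single read was worth 0.0866 to 2.28 RPM. Windows were set at 200 and 400 min of L4. Early animals, below 200 min, numbered 49 in N2 and 47 in tph-1, middle ones 67 and 70, and late ones, from 400 min on, 77 and 47. The labels also split the animals into 8 numbered sets of N2 and 4 of tph-1, of undefined meaning, and each set holds 1 strain. N2 sets and time overlapped poorly: early and late animals occurred together in 4 sets, with 1, 2, 2 and 1 late animals. Among all libraries, 2 of N2 set 4 had a summed level of 8 intestine markers under 1000 RPM (the lowest 60.4 RPM), and leaving them out changed no call of a member. The tph-1 transcript itself averaged 4.93 ± 5.32 RPM (SD) in early N2 and 4.66 ± 4.22 RPM in early tph-1 animals, and 3.45 ± 3.58 and 1.41 ± 1.60 RPM in late ones. The labels do not say which part of the gene mg280 changes, so this level does not check the genotype.

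Levels per length were compared as mean RPM per kilobase of exon, given for N2 first and tph-1 second, with the SD between animals. The cytosolic chaperone hsp-1 was highest, at 1375 ± 414 and 1268 ± 362. The ER chaperone hsp-3 followed at 580 ± 314 and 574 ± 284, and the mitochondrial chaperonin hsp-60 at 354 ± 193.1 and 294 ± 138.9. The ER chaperone hsp-4, at 102 ± 42.7 and 77.9 ± 31.3, and the mitochondrial HSP70 hsp-6, at 69.8 ± 46.2 and 48.04 ± 28.7, formed a middle group. The stress-inducible members lay far lower: hsp-16.41 at 7.37 ± 10.7 and 4.29 ± 5.77, hsp-16.2 at 4.37 ± 5.15 and 3.32 ± 3.92, and hsp-70 at 2.20 ± 2.39 and 1.39 ± 0.979.

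hsp-16.48, a small heat shock protein of the alpha-crystallin family, was close to absent. At least 1 read was found in 35 N2 animals and in 4 tph-1 animals, and its highest values were 1.47 and 1.28 RPM. Over all libraries it collected 48 reads in N2 and 4 in tph-1, and 29 of the N2 reads came from early animals. The symbol is annotated to 2 genes on chromosome V, at 9088131 to 9088617 on the plus strand and at 9089280 to 9089766 on the minus strand (Ensembl 115 annotation of WBcel235), within a cluster that also holds 2 genes called hsp-16.1. Reads of such close copies may have been lost or split in counting, so its level is uncertain and it was not tested.

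Along L4, 6 of the 8 tested members were lower in late than in early animals in each strain, 1 was higher and 1 did not pass the test (limma with set as a covariate, Benjamini-Hochberg adjusted over all tested genes); with libraries rescaled, as described next, 4 were lower in N2 and 5 in tph-1, with 1 higher. In RPM, the members that fell were hsp-1, hsp-3, hsp-6, hsp-60, hsp-16.2 and hsp-16.41. The one that rose was hsp-4, and hsp-70 did not pass. hsp-16.2 and hsp-16.41 passed the filter on low values mainly through early and middle animals. A fall was the common outcome for any gene in RPM: 43.7% of all tested genes were called lower and 14.7% higher in N2, against 71.9% and 14.4% in tph-1. The median of all tested genes itself moved by -0.36 in N2 and -0.68 in tph-1 on the log2(RPM + 1) scale used for all changes here, and the median member moved by -0.79 and -1.09. When libraries were rescaled with TMM or with median-of-ratios factors, which moved the median gene up by 0.30 and 0.34 (N2) or 0.57 and 0.52 (tph-1), hsp-6, hsp-60, hsp-16.2 and hsp-16.41 were still lower and hsp-4 still higher in both strains, and all of these passed the test. With TMM, all tested genes were nearly evenly split, with 2606 lower and 2981 higher in N2 and 3906 lower and 3960 higher in tph-1; with median of ratios the splits were 2190 and 3241, and 4339 and 3759.

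**Figure D1:**
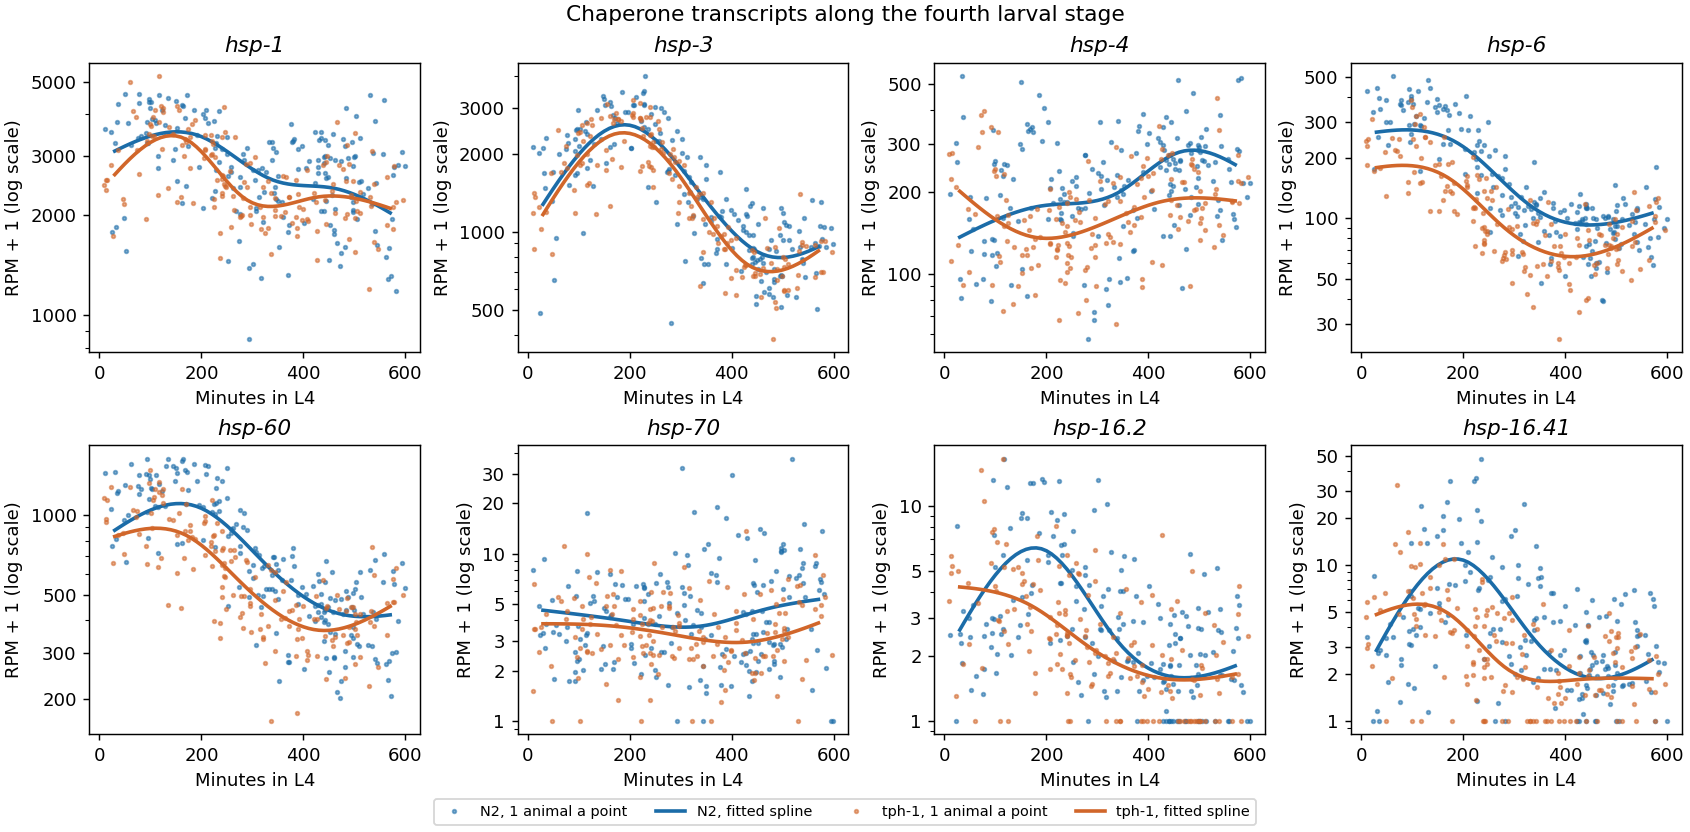
RPM + 1 of the 8 tested members (log scale) against minutes in L4. Each point is 1 animal (N2 in blue, tph-1 in orange) and lines are fitted natural splines with set effects averaged. hsp-3 falls after about 200 min, hsp-6 begins to fall earlier, and hsp-60 is lower late than early. hsp-4 is highest late in N2, hsp-70 shows little slope, and many animals sit at RPM + 1 = 1 (no read) for hsp-16.2 and hsp-16.41.

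These changes coincide with a changing make-up of the animal, and in RNA of a whole animal fewer cells of a type and less RNA per cell cannot be told apart. The summed level of 8 sperm markers went from a median of 12.2 RPM (range 0.437 to 373) in early to 3719 RPM (25.7 to 10036) in late N2 animals, and from 43.5 (4.06 to 436) to 5127 (713 to 12313) in tph-1. The sum of 10 germline markers went from 900.3 to 1299 RPM in N2 and from 768 to 1315 in tph-1, while that of 8 neuronal markers went from 325 to 145.9 and from 290.4 to 130 (medians). No marker of these lists was at 0 in all animals of a window. Their part in the changes of the chaperones was not tested.

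In the ER, the 2 BiP-type HSP70 chaperones differed in their late minus early change, hsp-3 being lower and hsp-4 higher in late animals. hsp-3 (chromosome X, 6089028 to 6092124, minus strand) is the BiP gene that is less dependent on the unfolded protein response. In early N2 animals it had a lowest, median and highest level of 482, 2179 and 3463 RPM, and in late ones of 503, 860.0 and 1466 RPM. In tph-1 the early values were 819, 1915 and 3107 RPM and the late values 385, 726 and 1392 RPM. Late animals were low as a group, although the ranges overlapped. The fall was -0.75 ± 0.15 (SE) in N2 (adjusted p = 1.03e-05) and -1.23 ± 0.13 in tph-1 (adjusted p = 3.13e-16).

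The course of hsp-3 was not a steady decline. Median levels by 100-min bins ran 2004, 2558, 2512, 1206, 800.2 and 898 RPM in N2 (23, 26, 32, 35, 49 and 28 animals) and 1430, 2335, 2129, 1043, 714 and 783 RPM in tph-1 (18, 29, 42, 28, 26 and 21 animals). The fitted curve peaked at 190 min in both strains, with a range of 1.70 and 1.78 log2 units between 30 and 570 min. Its middle window was accordingly above the mean of the ends, by 0.40 ± 0.09 in N2 (adjusted p = 4.7e-05) and 0.47 ± 0.09 for tph-1 (adjusted p = 1.8e-06). In this contrast 2 of 8 members were called in N2 and 4 of 8 in tph-1, against 31% and 31.8% of all tested genes, and hsp-3 was the single one that was higher in the middle. Rescaling with either factor took the late fall of N2 to -0.38 and -0.33 and below the call, with adjusted p of 0.136 and 0.14.

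hsp-4 (chromosome II, 7350112 to 7352645, minus strand), the BiP gene induced by the IRE-1 and XBP-1 branch of the unfolded protein response, ranged from 78.4 to 532 RPM (median 194) in early N2 animals and from 87.3 to 525 RPM (median 254) in late ones. In tph-1 it ranged from 72.1 to 396 RPM (median 149) early and from 89.04 to 443 RPM (median 195) late. The groups overlapped over almost their whole range. By 100-min bins its medians ran 144, 245, 182, 208, 254 and 253 RPM for N2, whereas those for tph-1 were 230.1, 131, 126.8, 178, 217 and 183 RPM. It was thus no steady rise: hsp-4 went up together with hsp-3 over the first 2 bins of N2, and its highest bin in tph-1 was the first. Late minus early was 0.51 ± 0.19 in N2 (adjusted p = 0.0147) and 0.28 ± 0.13 in tph-1 (adjusted p = 0.0468). Neither call was firm. The N2 call was lost without set 3, at 0.32 (adjusted p = 0.177). That of tph-1 was lost without set 3, at 0.18 (adjusted p = 0.292), and without set 1, at 0.31 (adjusted p = 0.0766). The tph-1 call was also lost with a pseudocount of 0.1 (adjusted p = 0.0503), without libraries under 1000000 reads (adjusted p = 0.101) and after thinning to that depth (adjusted p = 0.114). Under both rescalings, however, the change was larger, 0.88 and 0.93 in N2 and 0.93 and 0.88 in tph-1.

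Taken within each animal, the ratio of hsp-3 to hsp-4 reads does not depend on how libraries are scaled. Its median was 10.2 in early, 9.305 in middle and 3.68 in late N2 animals, and 13.5, 13.1 and 3.82 in tph-1. In N2 it ran from 1.88 to 25.8 early and from 1.25 to 7.99 late, and in tph-1 from 3.87 to 33.03 early and from 1.92 to 8.61 late, so that late animals were low but not separate from early ones. Within the 4 sets that hold both windows, the late ratio was 0.257 times the early one in N2 (log2 change -1.96, 38 early and 6 late animals, two-sided permutation test within sets, adjusted p = 0.00012 over 4 ratio tests) and 0.291 times in tph-1 (log2 change -1.78, 47 and 47 animals, adjusted p = 4e-05). With any 1 set left out the log2 change stayed between -2.17 and -1.58 in N2 and between -1.89 and -1.72 in tph-1.

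**Figure D2:**
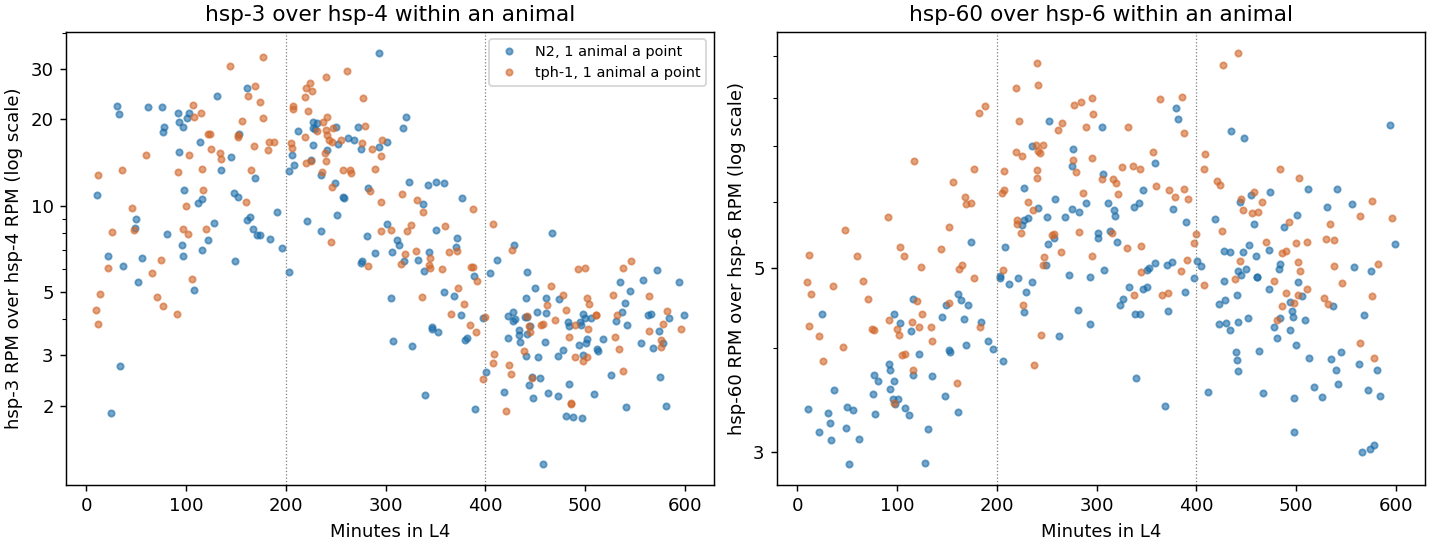
Ratio of hsp-3 to hsp-4 RPM (left) and of hsp-60 to hsp-6 RPM (right) in each animal, on log scales, against minutes in L4, with N2 in blue and tph-1 in orange; dotted lines mark 200 and 400 min. The left ratio drops from medians of 10.2 and 13.5 early to 3.68 and 3.82 late, while the right ratio stays within a few fold.

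Both mitochondrial members fell. hsp-6 (chromosome V, 4824124 to 4826760, minus strand), the HSP70 of the mitochondrial matrix, ran from 171 to 504 RPM (median 344) in early N2 animals and from 37.8 to 179.4 RPM (median 93.9) in late ones. In tph-1 it ran from 104 to 386 RPM (median 188) early and from 33.3 to 134 RPM (median 72.6) late. The windows barely overlapped in either strain in these values, which are not adjusted for set. The adjusted change was -1.05 ± 0.12 in N2 (adjusted p = 1.86e-13) and -1.16 ± 0.11 in tph-1 (adjusted p = 3.77e-19). Over the other settings the change of hsp-6 ranged from -1.88 to -0.63 in N2 and from -1.405 to -0.51 in tph-1. Its fitted curve peaked at 90 and 80 min, and the middle window was already below the mean of the ends, with differences of -0.18 ± 0.07 for N2 (adjusted p = 0.0388) and -0.25 ± 0.07 for tph-1 (adjusted p = 0.00377). The N2 middle call was lost with either rescaling, with edgeR and when any 1 of 6 of the 8 sets was left out (adjusted p up to 0.475). The tph-1 call was lost with TMM, at -0.19 (adjusted p = 0.126), and without set 1, at -0.16 (adjusted p = 0.123).

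hsp-60 (chromosome III, 1619742 to 1625803, plus strand), the mitochondrial chaperonin that folds imported proteins together with the HSP70 system, had medians of 1270.5, 696 and 421 RPM in early, middle and late N2 animals and of 960.4, 496 and 392 RPM in tph-1. Early animals ran from 664 to 1643 RPM in N2 and from 445 to 1488 RPM in tph-1, late ones from 201 to 712 RPM in N2 and from 224 to 755 RPM in tph-1. The late fall was -0.83 ± 0.12 in N2 (adjusted p = 1.7e-09) and -1.03 ± 0.11 in tph-1 (adjusted p = 9.26e-16). Over the other settings this fall ranged from -1.60 to -0.41 in N2 and from -1.25 to -0.37 in tph-1. Without the set covariate the N2 changes of hsp-6 and hsp-60 were larger, at -1.88 and -1.60. From early to late, hsp-60 fell less than hsp-6. Their ratio within an animal had medians of 3.65 early, 5.34 middle and 4.55 late in N2, and of 4.64, 6.24 and 5.36 in tph-1. It was thus highest in the middle window. Late against early, the log2 change was 0.43 in N2 (38 early and 6 late animals, adjusted p = 0.000213, permutation test within sets) and 0.17 in tph-1 (adjusted p = 0.0264). The tph-1 change no longer passed without set 2 (adjusted p = 0.0877) or set 3 (adjusted p = 0.064).

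In the cytosol, hsp-1 (chromosome IV, 17278959 to 17281330, plus strand), the constitutive HSP70 that serves general folding, had medians of 3641, 2680 and 2627 RPM in early, middle and late N2 animals and of 3370, 2292 and 2211 RPM in tph-1. Early animals ran from 1558 to 4600 RPM in N2, and late ones from 1184 to 4561 RPM, so the windows overlapped widely. The change of -0.41 ± 0.12 in N2 (adjusted p = 0.00128) and -0.50 ± 0.09 in tph-1 (adjusted p = 2.86e-07) was close to that of the median gene. With TMM it was -0.04 and 0.16, and with median of ratios 0.01 and 0.11, none of them called, so its direction depended on the scaling.

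hsp-70 (chromosome I, 9320325 to 9322519, minus strand), a cytosolic HSP70 that is strongly induced by heat, showed no call in time in either strain. Its medians were 2.68, 2.99 and 3.52 RPM in early, middle and late N2 animals and 2.64, 2.18 and 2.60 RPM in tph-1. The change was 0.04 ± 0.30 in N2 (adjusted p = 0.92) and -0.16 ± 0.19 in tph-1 (adjusted p = 0.415), and the spline test gave adjusted p of 0.425 and 0.403. The gene lies within uggt-2 (median 8.63 RPM) on the opposite strand, with which it shares no exon base. Whether strand was used in counting is not given in the sources used here.

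The paired small heat shock genes fell. hsp-16.2 (chromosome V, 1804334 to 1804957, minus strand) and hsp-16.41 (1805178 to 1805875, plus strand) are transcribed away from each other with 220 bases between their starts, and both encode holding chaperones that heat induces through HSF-1. In early N2 animals hsp-16.2 ran from 0 to 15.6 RPM (median 2.06) and in late ones from 0 to 4.95 RPM (median 0.754). In tph-1 it ran from 0 to 15.4 RPM (median 3.07) early and from 0 to 6.34 RPM (median 0.467) late. The highest animals were early ones, and the windows overlapped down to 0. Animals without a read made up 2.04% of early and 24.7% of late N2 animals, and 6.38% and 38.3% of those of tph-1, at the libraries' own depth. Late minus early was -1.07 ± 0.25 in N2 (adjusted p = 0.000132) and -1.16 ± 0.21 in tph-1 (adjusted p = 2.8e-07). Both genes of the pair passed the filter mainly through early and middle animals. hsp-16.2 reached 5 RPM in 10.4% of all animals and hsp-16.41 in 22.1%. No late N2 animal reached it for hsp-16.2, and no late tph-1 animal for hsp-16.41. The fall is therefore not independent of the filter. With no filter on low values, both were still called lower in each strain.

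hsp-16.41 ran from 0 to 33.7 RPM (median 3.32) in early and from 0 to 6.03 RPM (median 1.28) in late N2 animals, and from 0 to 31.9 RPM (median 4.52) and from 0 to 3.98 RPM (median 1.03) in tph-1. Its late change was -1.12 ± 0.34 in N2 (adjusted p = 0.00287) and -1.40 ± 0.23 in tph-1 (adjusted p = 3.56e-08). The size of changes at these levels depended on the setting. Over the other settings that of hsp-16.41 ranged from -1.80 to -0.62 in N2 and from -1.99 to -0.73 in tph-1. A count model (edgeR) on the recovered reads, which also scales libraries differently, gave -1.80 and -1.50 for hsp-16.41 and -1.78 and -1.43 for hsp-16.2.

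**Figure D3:**
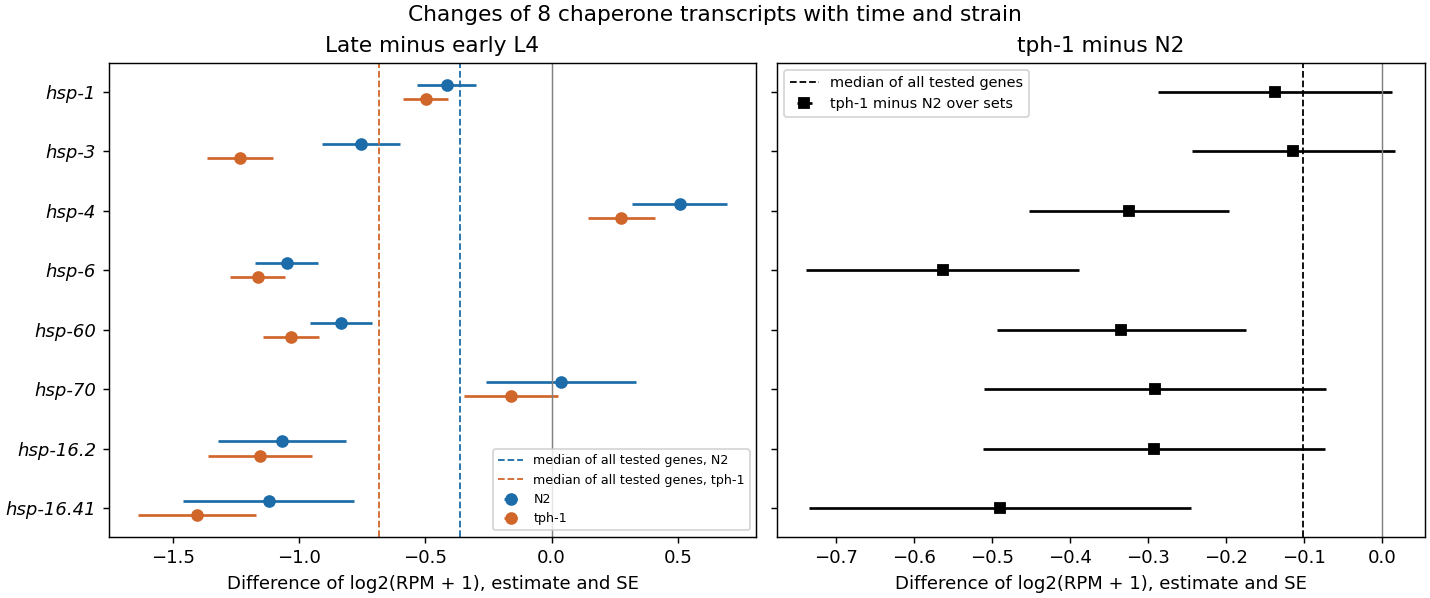
Left, late minus early change of each member in N2 (blue) and tph-1 (orange); right, tph-1 minus N2 difference over 12 sets (black). Points are estimates on the log2(RPM + 1) scale, bars are SEs, and dashed lines are medians of all tested genes (-0.36 and -0.68 on the left, -0.10 on the right). hsp-4 alone lies above 0 by more than its SE on the left, though neither of its calls was firm. All 8 estimates lie below 0 on the right, of which hsp-1 and hsp-3 turn positive under both rescalings.

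Taken as whole courses, 7 of 8 members in each strain passed the spline test (adjusted p), against 77.8% of all tested genes in N2 and 95.5% in tph-1. With the added demand of a fitted range of at least 1 log2 unit, 6 of 8 were called in N2 (51.1% of all tested genes) and 5 of 8 in tph-1 (74.9%). hsp-1 missed the range in both strains, with 0.81 and 0.72, and hsp-4 in tph-1, with 0.58 against 1.06 in N2. This contrast of hsp-4 was not firm. In tph-1 it was called with TMM (1.20), median of ratios (1.15) and edgeR (1.11). In N2 it lost the call without set 3 (0.84) or set 5 (0.89), without the set covariate (0.71) and with a 3 df spline (0.91). With TMM, hsp-6 missed the range in N2 (0.99) and tph-1 (0.81), as did hsp-60 in tph-1 (0.54). hsp-16.41 had the widest fitted range of the members in N2, 2.55, and hsp-3 in tph-1, 1.78. The tph-1 order depended on the setting: hsp-16.41 ranged from 0.83 to 2.69 and hsp-16.2 from 0.63 to 2.62 over the other settings, against 1.26 to 1.96 for hsp-3. The N2 ranges over settings also overlapped, with 1.49 to 3.68 for hsp-16.41 and 1.18 to 1.77 for hsp-3.

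In a test over animals, the shape of the course differed between the strains for 3 of 8 members, against 2.17% of all tested genes. The 3 were hsp-16.41 (adjusted p = 0.00121), hsp-16.2 (adjusted p = 0.0279) and hsp-60 (adjusted p = 0.0369), by a limma F test of strain by spline with set as a covariate, adjusted over all tested genes. Each set holds 1 strain, so a course particular to some sets cannot be told apart here from one particular to the strain. For hsp-16.41, medians by 100-min bins were 2.08, 5.42, 6.05, 3.32, 1.16 and 1.87 RPM for N2, whereas those for tph-1 were 4.51, 4.52, 1.96, 0.453, 0.987 and 1.21 RPM. N2 animals were thus highest between 100 and 300 min, and tph-1 animals before 200 min. The fitted curve peaked at 190 min in N2 and at 110 min in tph-1, and the middle window lay below the ends in tph-1 by -0.48 ± 0.15 (adjusted p = 0.0092) while its difference in N2 was 0.43 ± 0.19 (adjusted p = 0.0727). Neither value was settled: the tph-1 one was -0.20 without set 2 (adjusted p = 0.53) and lost its call with a pseudocount of 0.1 (adjusted p = 0.0523). The N2 one was called in 6 of its alternatives, among them TMM at 0.49 (adjusted p = 0.0258), median of ratios at 0.46 (adjusted p = 0.0365) and edgeR at 0.89 (adjusted p = 0.000935). For hsp-16.2 the corresponding medians were 1.53, 3.95, 3.37, 1.67, 0.664 and 1.04 RPM for N2, whereas those for tph-1 were 3.63, 2.81, 1.51, 0.737, 0.375 and 0.610 RPM.

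The hsp-16.41 difference passed with every set left out in turn (adjusted p from 0.000224 to 0.0214) and with both rescalings, but not with a pseudocount of 0.1 (adjusted p = 0.0617). That of hsp-16.2 was lost in 8 of 22 settings and that of hsp-60 in 10 of 23, among them leaving out N2 set 8 for both (adjusted p = 0.11 and 0.305). The sizes of the late minus early change were not shown to differ by strain for any of the 3 (adjusted p of 0.706, 0.894 and 0.513, against 1.44% of all tested genes called).

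Between the strains at equal age, no member passed the test, and 0.434% of all tested genes did (limma over 8 N2 and 4 tph-1 sets, adjusted over all tested genes). Those genes split into 41 with a higher and 21 with a lower level in tph-1, into 65 and 7 with TMM and into 76 and 4 with median of ratios. All 8 estimates were negative, from -0.56 to -0.11 (hsp-1 and hsp-3 turned positive under both rescalings), with a median of -0.31 against -0.10 for all tested genes. At an unadjusted p under 0.05, 3 members were lower and none higher in tph-1, against 20.4% and 7.19% of all tested genes. hsp-6 had the largest estimate: its age-adjusted set levels had a lowest, median and highest of 114.3, 136 and 208 RPM in N2, and the 4 tph-1 sets stood at 74.4, 102.5, 108.2 and 125.9 RPM. Of these 4 sets, 3 lay below every N2 set. The difference was -0.56 ± 0.17 (unadjusted p = 0.00427, adjusted p = 0.094), and it passed when N2 set 7 was left out, at -0.62 (adjusted p = 0.0353). It was smaller without tph-1 set 1, at -0.41 (adjusted p = 0.337), with TMM, at -0.38 (adjusted p = 0.233), and with median of ratios, at -0.29 (adjusted p = 0.289).

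hsp-4 also had 3 of its 4 tph-1 sets, at 143.7, 167.1, 174.8 and 184.5 RPM, below all N2 sets, which had a lowest, median and highest of 180.1, 202 and 257 RPM. Its difference was -0.32 ± 0.13 (unadjusted p = 0.02, adjusted p = 0.129), which shrank to -0.14 with TMM (adjusted p = 0.571) and -0.05 with median of ratios (adjusted p = 0.825). hsp-60 stood at 449.5, 534, 580.2 and 661 RPM in tph-1 against 523, 718 and 936 RPM (lowest, median and highest) in N2, a difference of -0.33 ± 0.16 (unadjusted p = 0.049, adjusted p = 0.179) that shrank to -0.15 (adjusted p = 0.617) and -0.06 (adjusted p = 0.825) with these factors. For hsp-16.41 the difference was -0.49 ± 0.24 (adjusted p = 0.194). hsp-1 at -0.14 ± 0.15 and hsp-3 at -0.11 ± 0.13 came to 0.05 and 0.13, and to 0.07 and 0.16, with TMM and median of ratios. With so few sets, these p-values do not show that the strains express the members alike.

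Animals of the same set and age differed more in the inducible members than in the abundant ones on the log2(RPM + 1) scale. The SD of residuals on the log2 scale, after removal of the age curve and set, was 0.36, 0.42, 0.35 and 0.35 for hsp-1, hsp-3, hsp-6 and hsp-60 in N2, and 0.31, 0.31, 0.35 and 0.36 in tph-1. These lay within the lowest 18% of all tested genes (percentiles of 17.9 and below). hsp-4 was looser, at 0.59 and 0.50. The SD of hsp-70 was 0.95 (N2) and 0.71 (tph-1), for hsp-16.2 it was 0.74 and 0.77, and for hsp-16.41 it was 0.99 and 0.88, at percentiles of 82.9 and 50.9, of 58.01 and 58.12, and of 86.6 and 70.2 among all tested genes. hsp-16.2 in both strains and hsp-70 in tph-1 were thus near the middle of all tested genes. Few reads widen the spread of a low gene, so the order of these SDs also holds counting error. The variance of RPM between animals, age included, was 13.6 and 2.14 times the counting variance for hsp-70 in N2 and tph-1, 8.95 and 4.03 times for hsp-16.2, and 25.3 and 7.50 times for hsp-16.41. Within 100-min bins of tph-1 the ratio went as low as 1.12 for hsp-70, 1.42 for hsp-16.2 and 1.09 for hsp-16.41, so in some bins the spread was close to that of counting.

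The 3 highest hsp-70 animals had 36.0 RPM (N2 set 8, 518 min), 31.7 RPM (N2 set 8, 302 min) and 28.4 RPM (N2 set 7, 401 min), against a median of 2.93 RPM in N2, and no tph-1 animal exceeded 12.7 RPM. The 3 highest hsp-16.41 animals, at 47.3, 35.4 and 33.7 RPM, had hsp-70 at 4.71, 5.62 and 4.54 RPM, so the highest animals for these genes were different ones. The set SD of hsp-70 ran from 0.45 to 1.26 across the N2 sets and from 0.65 to 0.74 across the tph-1 sets. For no member was the spread shown to differ by strain, and 0.021% of all tested genes were called (limma over 12 sets). At an unadjusted p under 0.05 no member passed either, against 8.45% of all tested genes. For hsp-70 the difference of log2 SDs was -0.22 ± 0.23 (adjusted p = 0.715), and for hsp-16.41 it was -0.20 ± 0.16 (adjusted p = 0.67).

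**Figure D4:**
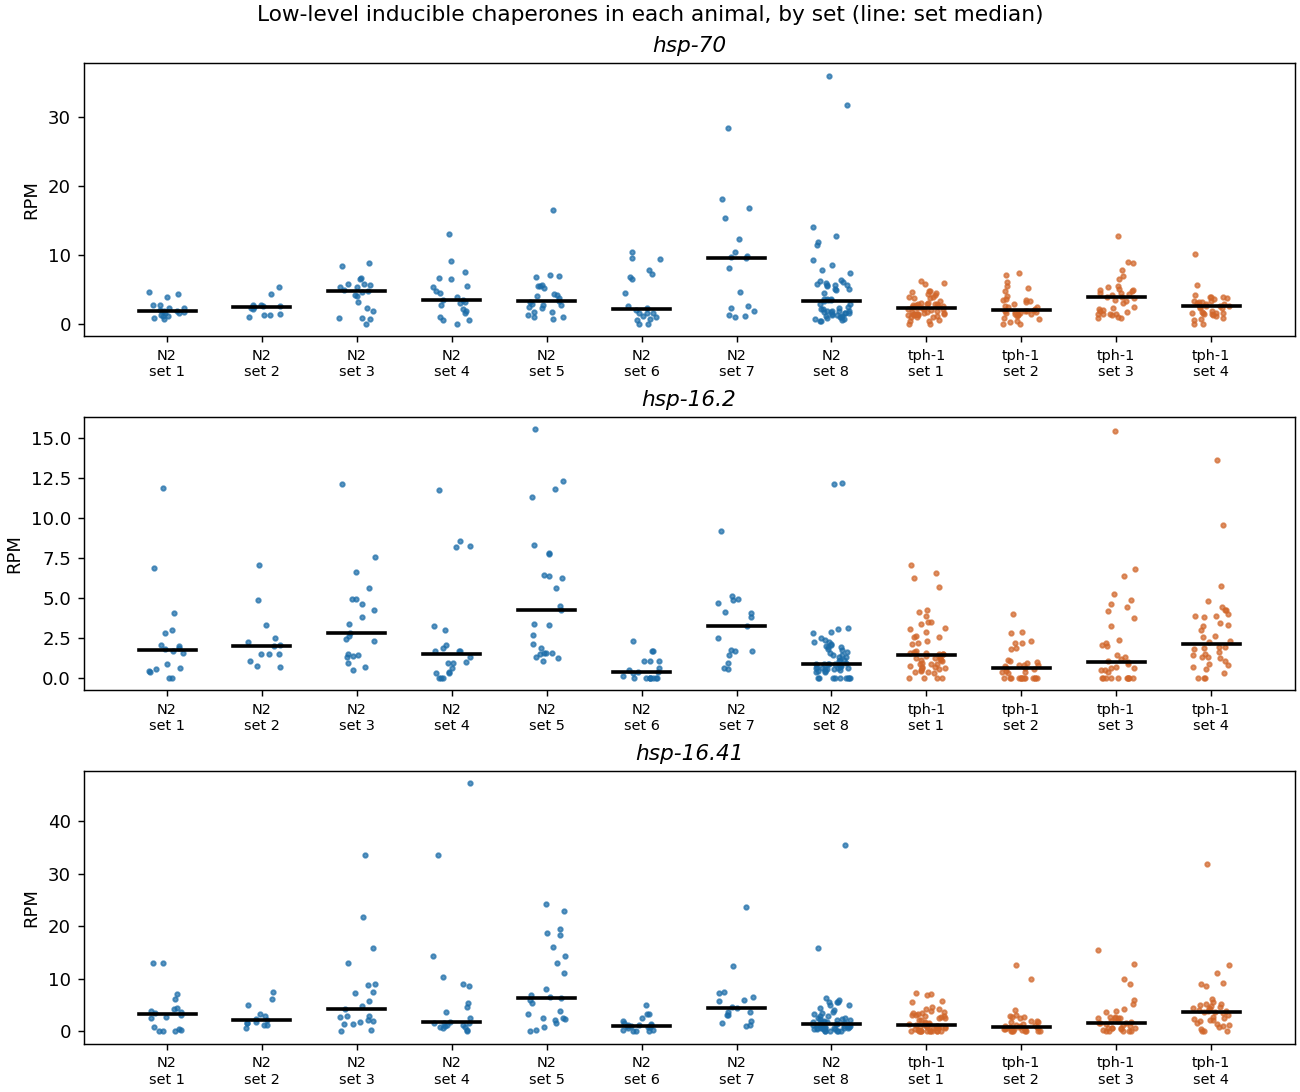
RPM of hsp-70, hsp-16.2 and hsp-16.41 in each animal (points) of the 8 N2 sets (blue) and 4 tph-1 sets (orange); black lines are set medians and sideways scatter within a set carries no value. Single animals reach 36.0 RPM for hsp-70 and 47.3 RPM for hsp-16.41, and N2 set 7 has the highest median of hsp-70.

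Among animals of the same set and age, the abundant members were positively correlated with each other (except that hsp-4 with hsp-6 in N2, at r = 0.15, had adjusted p = 0.0562), and in tph-1 several of them were negatively correlated with the inducible ones. Of 56 pairs tested, 28 in each strain, 15 were positively and 1 negatively correlated in N2 and 13 positively and 9 negatively in tph-1 (two-sided permutation tests within sets, Benjamini-Hochberg adjusted over the 56). These counts stand against a background away from 0: the median r with all tested genes ran from -0.22 for hsp-3 to 0.19 for hsp-16.2 in N2, and from -0.25 for hsp-60 to 0.37 for hsp-16.41 in tph-1. The mitochondrial pair hsp-6 and hsp-60 was tightest: r = 0.83 and rho = 0.79 in N2, and r = 0.80 and rho = 0.79 in tph-1, each with adjusted p = 2.8e-05 for r and 3.11e-05 for rho, the smallest these permutations can give. Without the 2 animals farthest from the median of hsp-6, r was 0.82 and 0.80. For comparison, 95% of all tested genes had an r with hsp-60 below 0.32 in N2 and 0.31 in tph-1. Other pairs of abundant members were hsp-1 and hsp-60 at r = 0.68 and 0.58 (rho = 0.63 and 0.48), and hsp-3 and hsp-60 at 0.53 and 0.69 (rho = 0.55 and 0.65), all at that same smallest p.

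The divergent pair hsp-16.2 and hsp-16.41 had r = 0.73 and rho = 0.69 in N2, and r = 0.44 and rho = 0.41 in tph-1 (adjusted p = 2.8e-05 for r), with 0.72 and 0.43 without the 2 farthest animals. In N2 this lay above the 95th percentile of all tested genes for either member (0.34 for both), but in tph-1 below it (0.48 and 0.64), where the median r of all tested genes was itself 0.30 with hsp-16.2 and 0.37 with hsp-16.41. After thinning each library to 1000000 reads and leaving out shallower ones, r was 0.58 and 0.37, and with TMM in tph-1 it was 0.27. hsp-70 correlated weakly with hsp-16.41, at r = 0.25 (rho = 0.23, adjusted p = 0.00105) in N2 and 0.36 (rho = 0.31, adjusted p = 2.8e-05) in tph-1, and the latter was no higher than that median and did not pass with TMM (r = 0.13, adjusted p = 0.135). The N2 value of this pair did not pass without set 8 (r = 0.18, adjusted p = 0.0605). The 2 BiP genes were positively correlated among animals of equal age, at r = 0.23 (rho = 0.20, adjusted p = 0.00492) in N2 and 0.34 (rho = 0.26, adjusted p = 2.8e-05) in tph-1. With TMM these rose to 0.53 and 0.68, and without set 8 the N2 value was 0.16 (adjusted p = 0.113). The N2 value lay below the 95th percentile of all tested genes for either gene (0.27 for hsp-3 and 0.39 for hsp-4). The tph-1 value lay above it for both genes (0.27 for hsp-3 and 0.24 for hsp-4), but was 0.25 without libraries under 1000000 reads.

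**Figure D5:**
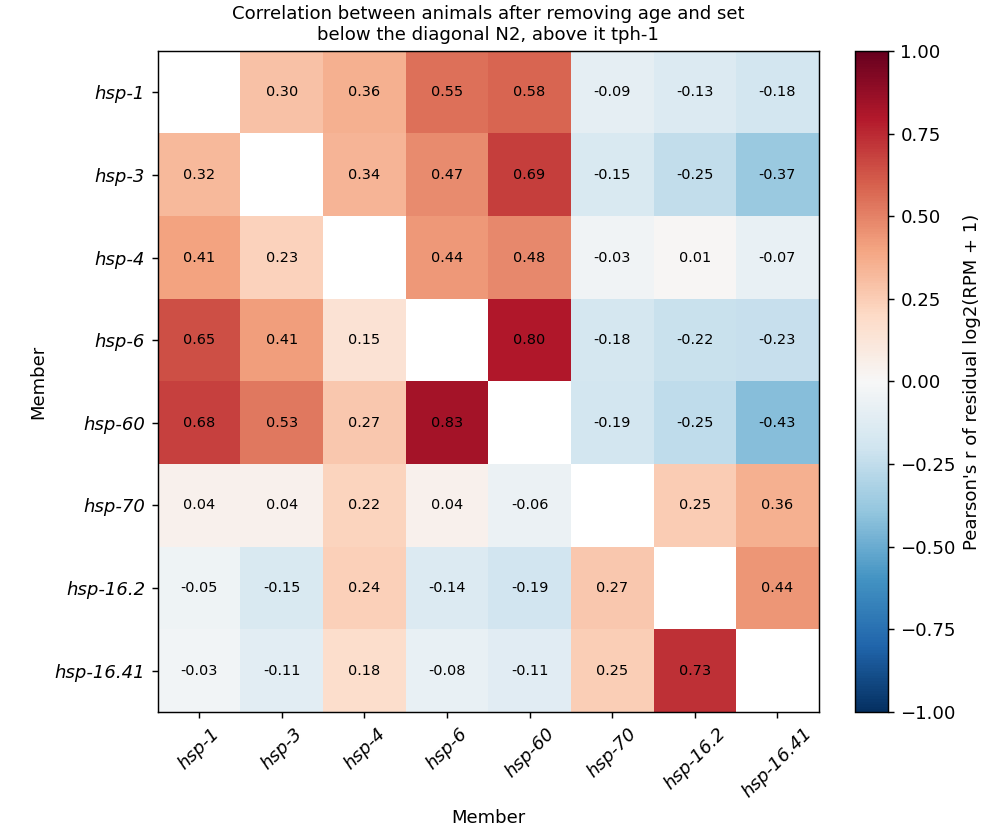
Pearson's r between members of residual log2(RPM + 1), after removing age and set, over N2 animals (below the diagonal) and tph-1 animals (above). The 5 abundant members form a positive block with hsp-6 and hsp-60 highest at 0.83 and 0.80, and hsp-16.2 with hsp-16.41 is the highest of the inducible pairs, at 0.73 and 0.44.

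hsp-60 and hsp-16.41 were negatively correlated in tph-1, at r = -0.43 (rho = -0.44, adjusted p = 2.8e-05), and in N2 the value was -0.11 (rho = -0.08, adjusted p = 0.162). The median r of all tested genes with hsp-60 was itself negative, -0.25 in tph-1 and -0.19 in N2.

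Outside the set, the genes whose residuals were most like those of each abundant member, by the mean of the r values of the strains, each over all its animals, included other chaperones and parts of the translation and secretion machinery. hsp-1 was closest to hsp-90 (mean r = 0.89), the cytosolic HSP90, then to the elongation factor gene eef-1A.1 (0.82) and the lysyl-tRNA synthetase gene kars-1 (0.77). hsp-3 was closest to pdi-3 (0.86), a protein disulfide isomerase, then to stt-3 (0.81) and ribo-1 (0.78), both subunits of the oligosaccharyltransferase. hsp-6 and hsp-60 were both closest to cct-7 (0.79 and 0.86), a subunit of the cytosolic CCT chaperonin, followed by hsp-110 (0.76) and eif-3.B (0.75) for hsp-6 and by cct-5 (0.79) and let-754 (0.77) for hsp-60. hsp-4 was closest to cdc-37 (0.53), an HSP90 co-chaperone, then to C25D7.1 (0.49) and F32A11.3 (0.48).

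The inducible members had looser neighbours than hsp-1, hsp-3, hsp-6 and hsp-60, while those of hsp-16.41 were slightly closer than those of hsp-4. For hsp-70 these were F19B2.5 (0.38), ule-3 (0.36) and T07E3.4 (0.34), for hsp-16.2 otpl-8 (0.48), T25B2.2 (0.47) and str-82 (0.46), and for hsp-16.41 T06D8.2 (0.55), aakg-4 (0.54) and oac-7 (0.54). For hsp-16.41 the values were lower in N2 than in tph-1, 0.42 against 0.67 for T06D8.2.

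Other chaperones and folding factors, taken from lists by compartment, were mostly lower late in L4 in RPM, and fewer of them passed once libraries were rescaled. In RPM, 43.7% of all tested genes were called lower in N2 and 71.9% in tph-1, and 14.7% and 14.4% were called higher. All 14 tested genes of the CCT chaperonin and prefoldin, which fold actin and tubulin, were lower in both strains, with medians of -0.65 in N2 and -0.66 in tph-1; with TMM, 6 and 2 of them were lower and the medians were -0.27 and -0.03. cct-3 changed by -1.002 ± 0.14 and -1.008 ± 0.12. cct-8 passed under each scaling, at -0.99 ± 0.13 and -0.97 ± 0.14 in RPM and -0.64 and -0.36 with TMM. Of 18 mitochondrial folding and stress genes, 14 were lower in N2 and 17 in tph-1, with none higher; with TMM, 9 were lower in each strain and 1 and 2 were higher. Among them the protease gene spg-7 changed by -0.86 ± 0.11 and -1.19 ± 0.09 in RPM, and by -0.49 and -0.55 with TMM, and Y22D7AL.10 changed by -0.74 ± 0.12 and -1.21 ± 0.09 in RPM.

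Of 17 genes of the cytosolic HSP70 and HSP90 machinery, 14 and 15 were lower in RPM, but 3 and 2 with TMM, against 1 and 4 higher. Of all 14293 tested genes, 6243 and 10271 were lower in RPM, and 2606 and 3906 with TMM. The HSP90 co-chaperone gene cdc-37 was higher under each scaling, at 0.89 ± 0.16 and 0.84 ± 0.11 in RPM, while the co-chaperone gene sti-1 was lower, at -0.86 ± 0.13 and -1.03 ± 0.10, as was the HSP40 gene dnj-13, at -0.96 ± 0.13 and -1.01 ± 0.10. The ER list was mixed. Of its 19 tested genes, 14 were lower and 1 higher in N2 and 16 and 2 in tph-1, and with TMM 6 and 10 were lower and 5 higher in each strain. Like hsp-3, 7 of them were higher in the middle than at the ends in each strain, and 8 and 9 with TMM; of all 14293 tested genes, 1807 and 1892 were higher in the middle, and 2280 and 2331 with TMM. The ER HSP90 gene enpl-1 changed by -1.24 ± 0.18 and -1.995 ± 0.19. The disulfide isomerase gene pdi-6 changed by -1.14 ± 0.18 and -1.49 ± 0.14, and the co-chaperone gene dnj-28 by 0.87 ± 0.21 and 0.70 ± 0.15, each in the same direction and called with TMM.

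Lower and higher late in RPM were 43.7% and 14.7% of all tested genes in N2, and 71.9% and 14.4% in tph-1. Among 6 other small heat shock protein genes that passed the filter, of 12 found in the tables, 4 were lower and 1 was higher in each strain in RPM, and 2 and 1 with TMM. The higher one was sip-1, known for its role in the germline and embryo, at 2.59 ± 0.43 and 3.77 ± 0.25, and hsp-17 changed by -1.35 ± 0.23 and -2.15 ± 0.18 and hsp-12.2 by -1.09 ± 0.22 and -0.65 ± 0.15. With median-of-ratios factors the counts of all these lists differed from those with TMM by at most 3 genes. No gene of any of these lists passed in the comparison of the strains.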

How the data were processed

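Single-animal polyA libraries were made with SMART-seq2 and Nextera tagmentation, per the labels' protocols and the series' design text. The aligner was STAR 2.7.9a, per the submitters' processing notes; build, annotation, counting tool and strand setting are not given there. The authors deposited 1 table of RPM per strain, the unit being taken from the table names and tested on the values: each gene's reads were scaled by the library's reads in genes. Whole reads were recovered from the steps of the low values, and 100% of values were whole within 0.1 reads. No pair of libraries was identical. Coordinates come from the Ensembl 115 annotation of WBcel235.

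Tests were limma 3.58.1 (with trend) in R 4.3.3 on log2(RPM + 1), over the 14293 genes that reached 5 RPM in 10% of animals or more, Benjamini-Hochberg adjusted, threshold 0.05, with set as a covariate. Age was a natural spline with 4 degrees of freedom, or 3 windows. Strain was tested on 12 set intercepts after a shared spline, and spread on set SDs of residuals. Correlations and ratios used 100000 permutations within sets (numpy 2.4.6, Python 3.11.15). edgeR 4.0.16 (quasi-likelihood) on recovered reads was an alternative: it called 5522 genes late against early in N2, where limma called 8340.

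The labels name each library as 1 animal, and p-values measure the spread between these animals or sets. The sources used here name no molecular identifiers, so what depth gives is counting error alone. Named genes are all members, per list the 2 largest increases and decreases called late against early in both strains, and the 3 genes most alike. The members and lists were chosen with earlier results of these data known. Tested on simulated data, the late against early comparison in N2 recovered 91% of 100 genes changed 2-fold. The strain by time interaction recovered 63% and the strain comparison 100%. The simulation held no differences between sets, so the strain figure does not give the power of that test on the real sets.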

Additional observations from a re-analysis of the deposited data

Results flagged for a closer look

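The age-adjusted level of hsp-70 in N2 set 7, 6.82 RPM, stood apart from the other 7 N2 sets, which lay between 1.83 and 3.57 RPM. On the log2 scale, on which set levels were compared, its gap to the next set was 0.527 of the whole range over the 8 N2 sets. It was the only one of 32 groups of set levels or set SDs of members to stand out by Dixon's criterion, and chance flags about 1 in 20 groups. N2 set 7 was also the highest N2 set for hsp-16.41, at 6.66 RPM against 3.27 RPM in the next, and for hsp-16.2, at 3.91 RPM against 2.35 RPM.

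The course along L4 differed between N2 and tph-1 by a test of the difference itself for hsp-16.41 (adjusted p = 0.00121), hsp-16.2 (adjusted p = 0.0279) and hsp-60 (adjusted p = 0.0369, limma over animals, adjusted over all tested genes). Early N2 and early tph-1 animals come from different sets, and N2 sets 6, 7 and 8 hold no early animal, so the part of the sets in these differences was not tested beyond leaving out each set in turn.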

How the results depend on the processing

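Over 1281 repeats of values for selected members and pairs under other settings, 1159 kept direction and side of the threshold. Of the rest, 71 lost the call, 30 gained it and 21 changed sign. Spread was repeated for hsp-70 and hsp-16.41 only, and middle minus ends and correlations for some members and pairs only. Results that were not called and stayed so count as kept. Sign changes included hsp-1, called lower late in both strains in RPM. Late minus early of hsp-1 became 0.0106 (median of ratios) and 0.0043 (edgeR) in N2, and 0.16 (TMM), 0.11 (median of ratios) and 0.0039 (edgeR) in tph-1. That of hsp-70 became -0.0895 in N2 after thinning, and in tph-1 0.32 (TMM), 0.28 (median of ratios), 0.0089 (no set covariate) and 0.38 (edgeR). With each set left out, it ranged from -0.13 to 0.15 in N2. Strain differences of hsp-1 became 0.0452 (TMM), 0.13 (median of ratios), 0.0184 (edgeR over animals) and 0.0039 (sets 1 to 4), and those of hsp-3 0.069 and 0.16 with the rescalings. The strain difference in spread became 0.0319 for hsp-16.41 with median absolute deviations.

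Counts of members called moved as follows. The tph-1 time course went from 5 to 3 with a pseudocount of 5, a filter at a mean of 10 RPM or TMM. The 10 RPM filter leaves hsp-70, hsp-16.2 and hsp-16.41 untested, so counts with it cover fewer members. N2 middle minus ends went from 2 to 5 without the set covariate and to 4 with edgeR, and ranged from 1 to 3 with sets left out; tph-1 went from 4 to 2 with TMM and ranged from 2 to 4. The strain difference went from 0 to 8 with limma and 6 with edgeR over animals without a set term, which treats animals of 1 set as independent, and ranged from 0 to 1 with sets left out. The interaction went from 3 to 0 with a pseudocount of 0.1, to 1 with the 10 RPM filter or median of ratios and to 5 without the set covariate, and ranged from 1 to 3.

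Counts over all tested genes also moved. For the 10 RPM filter, which tests fewer genes, they were 4373 (N2 time course), 7207 (N2 by adjusted p alone), 5201 and 7553 (tph-1) and 6660 (tph-1 late minus early). N2 late minus early was 8340, but 5431 with median of ratios and 5522 with edgeR; tph-1 was 12328, but 7866 with TMM and 8098 with median of ratios. The tph-1 time course was 10702, but 6325 (pseudocount of 5), 5905 (TMM), 6087 (median of ratios) and 6636 (edgeR), and tph-1 middle minus ends was 7546 without the set covariate. The strain count of 62 became 96 without 2 N2 libraries low in intestine markers (a choice made after seeing the data, like thinning), 9103 and 8437 over animals, 502 with weighted sets and 27 with camera as a covariate, and ranged from 22 to 1552 with sets left out, the highest without N2 set 7. The interaction, called for 2.17% of the genes tested, was called for 3.81% with a pseudocount of 5, 1.23% with one of 0.1, 3.37% with the 10 RPM filter and 36.8% without the set covariate, and ranged from 1.39% to 4.88% with sets left out. The spread count of 3 became 9 with a pseudocount of 5. The cause of these moves was not tested further.

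Set numbers 1 to 4 occur in both strains. Deviations of same-numbered sets had low correlations (r of 0.22, -0.09, 0.10 and -0.02), and not every set correlated best with its own number. With 4 sets of each strain, these values cannot tell whether the numbers pair the sets. In those 8 sets, the strain difference called 2 members and 3786 genes without a replicate block and 1 member (hsp-6, -0.67, adjusted p = 0.0249) and 5006 genes with the replicate block; the spread called 305 genes with the replicate block, and hsp-70 turned to 0.13. Depth limits the inducible members most: 26 libraries held under 1000000 reads, where 1 read is worth over 1 RPM.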
